A study of Homo sapiens with 6 samples.

Results

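C-type lectins are a family of proteins that share a fold first found in calcium-dependent sugar-binding proteins, and 8 of their genes are described here: CLEC2B, CLEC2D, CD69, CLEC5A, CLEC7A, CLEC12A, CD93 and CLEC11A. The 8 were chosen by name from a list drawn up with earlier results of the same libraries in view, so every value that compares the groups for them is a description and carries no test. All 8 symbols were found among the 43424 symbols of the count files, and 7 of them passed the filter on low counts. The cells were HL-60, a human acute myeloid leukaemia line listed as WT in genotype, kept in culture for 6 months. One group of 3 libraries came from cells kept with CIP, an agent named after Corydalis incisa (Thunb.) Pers., while its concentration was raised from 2 to 20 µg/ml, and the series calls these cells CIP-resistant. The other 3 libraries came from cells kept with DMSO. The comparison was meant to point to genes behind the differentiation that CIP causes in such leukaemia cells. Messenger RNA was read near its 3' end with QuantSeq, so counts do not scale with transcript length and levels of different genes can be set side by side in CPM (counts scaled to a common library size after TMM normalization). Nothing in the labels says that the replicates were separate cultures, so errors measure the spread between these libraries, which may be technical. If each label stands for 1 culture, the exposure and other changes between cultures over those months cannot be told apart.

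The genes fall into several roles. CLEC2B (also AICL), CLEC2D (LLT1) and CD69 belong to a branch of lectin-like surface proteins whose genes lie together on chromosome 12 in the natural killer gene complex, a stretch of DNA that also holds the KLR receptor genes of natural killer cells. CLEC2B is the ligand of the activating receptor NKp80 (KLRF1), CLEC2D is the ligand of CD161 (KLRB1), and CD69 is an early activation antigen of leukocytes that draws the receptor S1PR1 off the cell surface. CLEC5A, CLEC7A and CLEC12A are receptors of myeloid cells: CLEC5A signals through the adaptor DAP12 (TYROBP), CLEC7A (dectin-1) binds fungal beta-glucan and signals through SYK and CARD9, and CLEC12A is an inhibitory receptor, well known as a surface marker of acute myeloid leukaemia blasts, that recruits phosphatases such as PTPN6. CD93 is a surface glycoprotein of endothelium, monocytes and early progenitors, and CLEC11A is a secreted growth factor.

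Total counts were 8143657 to 10868396 per library, and 3 counts in a library equalled 0.288 to 0.347 CPM. Called genes, those with an adjusted p under 0.05 in the edgeR quasi-likelihood fit, numbered 9394 of 12844 (73.1%), with 34.9% of all tested genes higher under the CIP label and 38.2% lower. When libraries were scaled by their totals alone, 3452 genes were higher and 5920 lower in place of 4482 and 4912, and the median log2 fold change over all genes moved from -0.035 to -0.26. The labelled line was checked against its markers. MPO, the myeloperoxidase for which HL-60 is known, had 77887 to 84917 counts under the CIP label and 9 to 15 under the DMSO label, while the neutrophil elastase gene ELANE had 2826 to 5899 counts in all 6 libraries, and MYC, amplified in HL-60, had 280.1 ± 52.3 CPM under the CIP label and 41.8 ± 3.91 CPM under the DMSO label. CTSG, another granule protease gene, was higher under the DMSO label, at 654.7 ± 28.2 against 95.4 ± 4.78 CPM. Of the 7 tested genes among 8 such markers, 4 were higher with CIP (MPO, MYC, CD33 and PRTN3) and 3 lower (CTSG, ELANE and AZU1). The DMSO-labelled libraries thus go against the label in MPO, and have less MYC, but do not go against it in the proteases ELANE and CTSG. The groups are named by their labels throughout.

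CLEC2B (chromosome 12, 9852369 to 9869354, minus strand, GRCh38) had the highest level of the 8 genes in the DMSO-labelled libraries. It had 15641, 17560 and 11511 counts there, replicates 1 to 3 in turn, against 10, 2 and 4 under the CIP label. The 3 DMSO-labelled libraries lay between 1302 and 1684 CPM, the 3 CIP-labelled ones between 0.205 and 1.16 CPM, and the groups were far apart. The mean levels were 1512 ± 193.8 CPM and 0.588 ± 0.502 CPM (SD, n = 3). The difference in log2 CPM was -11.35 ± 0.20 (SE, edgeR fit), the 18th lowest of the 12844 tested genes. Summed counts, scaled for library size, differed 2696-fold (exact 95% interval 1660 to 4717, counting error only). Within a library, CLEC2B ranked 72nd to 85th of all genes by count under the DMSO label and held 0.141% to 0.18% of all counts. Under the CIP label its rank was 11186th to 13623rd. Without CIP replicate 1, which held 10 of the 16 CIP-labelled counts, the log2 difference was -12.20. In bulk RNA of this kind, fewer cells with a transcript and less of it per cell cannot be told apart.

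CD69 (chromosome 12, 9752486 to 9760901, minus strand) was low in both groups but present mainly under the DMSO label. Its counts were 107, 106 and 109 under the DMSO label against 4, 7 and 0 under the CIP label. The level of 11.03 ± 1.14 CPM in the DMSO-labelled libraries was steady, and no CIP-labelled library exceeded 0.717 CPM. The log2 difference was -4.78 ± 0.43 (SE), the count ratio was 28.2-fold (exact 95% interval 15.6 to 57.1), and the log2 value was -5.58 without CIP replicate 2 and -4.17 without CIP replicate 3.

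CLEC2D (chromosome 12, 9669713 to 9699553, plus strand), the remaining gene of this branch, differed much less. Counts were 272, 251 and 205 under the DMSO label and 160, 168 and 181 under the CIP label. The means were 24.7 ± 1.96 and 18.0 ± 0.69 CPM. The groups did not overlap, since the lowest DMSO-labelled library stood at 23.2 CPM and the highest CIP-labelled one at 18.5 CPM, but the log2 difference was only -0.46 ± 0.14 (SE). A gap of this size depends on the scaling: it was -0.69 with library totals alone, where the median of all genes was -0.26.

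Among the myeloid receptors, CLEC12A (chromosome 12, 9951268 to 10006150, plus strand) stood apart from the others. Counts were 2247, 2393 and 1929 with the DMSO label against 213, 266 and 319 with the CIP label. That is 223.4 ± 5.71 CPM against 28.0 ± 3.83 CPM, with no overlap and a log2 difference of -2.99 ± 0.09 (SE). Unlike CLEC2B and CD69, it kept a clear level under the CIP label. One lncRNA gene, LOC124902874 (9951657 to 9956997), lies wholly inside the span of CLEC12A and had 1123, 1181 and 1051 counts with the DMSO label and 0 in each CIP-labelled library. Whether the counting used strand is not stated, so reads of overlapping genes may not be fully separated.

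CLEC5A (chromosome 7, 141927357 to 141946974, minus strand) had 302, 405 and 301 counts under the DMSO label against 170, 211 and 213 under the CIP label. It overlaps MGAM on the opposite strand. The means were 34.3 ± 4.47 and 20.9 ± 1.09 CPM, the groups did not overlap, and the log2 difference was -0.71 ± 0.13 (SE). CLEC7A (chromosome 12, 10116777 to 10130304, minus strand) was close to unread under both labels. It had 1 count in each CIP-labelled library and 2, 0 and 0 in the DMSO-labelled ones, did not pass the filter, and its groups overlapped. Its summed counts of 3 and 2 were at or under the 3 counts taken here as the floor for a group (0.106 CPM for the CIP and 0.102 CPM for the DMSO label), so no difference was detectable at this depth.

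CD93 (chromosome 20, 23079360 to 23086324, minus strand) differed nearly as much as CLEC2B, on another chromosome. Its 2666, 2956 and 2363 counts with the DMSO label compare with 4, 2 and 0 with the CIP label. Without CIP replicate 1 the log2 difference was -11.20, and without CIP replicate 3 it was -9.63. The mean of 271.6 ± 10.4 CPM under the DMSO label compared with 0.222 ± 0.232 CPM, a log2 difference of -10.24 ± 0.18 (SE) and the 46th lowest of all tested genes. The count ratio was 1284-fold, with a wide exact 95% interval of 589.6 to 3499 because it rests on 6 CIP-labelled counts. CLEC11A (chromosome 19, 50723364 to 50725708, plus strand) was the least changed member that could be compared. Counts of 1350, 1354 and 1215 against 811, 960 and 1065 gave 133.7 ± 3.79 and 99.8 ± 6.95 CPM. The log2 difference was -0.42 ± 0.08 (SE), or -0.65 with library totals alone, and the groups did not overlap.

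By direction, 7 of the 8 members had every CIP-labelled library below every DMSO-labelled one. Such a separation was found for 39.3% of all tested genes, and since the members were chosen with these values known, nothing is read from the count. The members differed widely in size of change. CLEC2B, CD93 and CD69 were at 1.16 CPM or lower in every CIP-labelled library, CLEC12A was 7.97-fold lower by mean CPM, and CLEC5A, CLEC2D and CLEC11A were 1.34-fold to 1.64-fold lower.

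**Figure D1:**
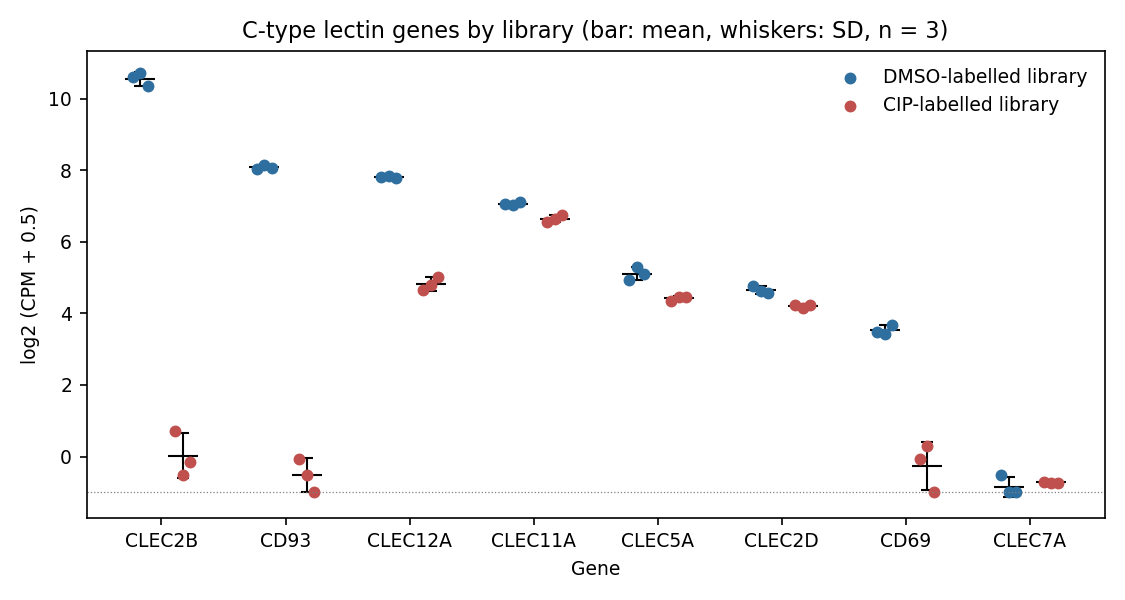
Levels of the 8 genes in each library on a log2 scale (CPM plus 0.5, vertical axis), with DMSO-labelled libraries in blue, CIP-labelled ones in red, a bar at the mean and whiskers of 1 SD over 3 libraries on that scale. The dotted line marks 0 counts; CLEC2B, CD93 and CD69 drop to near that line under the CIP label, and CLEC11A, CLEC5A and CLEC2D stay close to their DMSO-labelled levels.

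Promoter sequences from RefSeq (GRCh38.p14) matched 4 of the 8 members, CLEC2D, CLEC5A, CLEC11A and CLEC12A. CLEC2B, CLEC7A, CD69 and CD93 had no entry. The 250 bases before the annotated start are shown for 3 of them, 5' to 3' on the gene's own strand, because these 3 span the range from the strongest to the weakest change among members with an entry. The start given for CLEC12A lies inside the span of the gene. Capitals mark GGAA, the core of sites bound by ETS factors such as the myeloid regulator PU.1, or the same letters on the other strand (TTCC).
CLEC12A (chr12:9971159-9971408, plus strand): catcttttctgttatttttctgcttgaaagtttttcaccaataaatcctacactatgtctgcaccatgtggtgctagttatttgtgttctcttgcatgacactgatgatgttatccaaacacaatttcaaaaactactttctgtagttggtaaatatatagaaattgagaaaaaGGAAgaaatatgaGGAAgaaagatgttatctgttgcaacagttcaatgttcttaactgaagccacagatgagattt
CLEC5A (chr7:141946975-141947224, minus strand): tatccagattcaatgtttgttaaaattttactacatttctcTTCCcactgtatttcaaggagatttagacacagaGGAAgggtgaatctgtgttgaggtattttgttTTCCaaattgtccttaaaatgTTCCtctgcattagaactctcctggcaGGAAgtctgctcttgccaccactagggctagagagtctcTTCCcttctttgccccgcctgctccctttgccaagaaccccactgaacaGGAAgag
CLEC11A (chr19:50723114-50723363, plus strand): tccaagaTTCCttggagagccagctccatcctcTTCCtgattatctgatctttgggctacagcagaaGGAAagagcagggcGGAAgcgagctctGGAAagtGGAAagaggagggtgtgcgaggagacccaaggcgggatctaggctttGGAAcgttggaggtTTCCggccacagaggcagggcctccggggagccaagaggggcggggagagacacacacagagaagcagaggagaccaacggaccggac
The core occurred 2 times before CLEC12A, 7 times before CLEC5A, 8 times before CLEC11A and 1 time before CLEC2D. Among 35116 promoters of the same length 92.7% held it at least 1 time, with a median of 3, and 95.9% and 98.3% held fewer matches than CLEC5A and CLEC11A. The pattern TTNCNNAA, a loose form of a C/EBP site, was found 2 times before CLEC12A, 1 time each before CLEC2D and CLEC5A and not before CLEC11A, and in 33.2% of all promoters. TGANTCA, the AP-1 pattern, was found 1 time, before CLEC2D (6.57% of all promoters). The TATA box pattern TATAAA had no match in these 4 windows and was found in 10.7% of all promoters. The E-box pattern CACGTG (6.34%) and a loose NF-kB pattern (54.4%) had no match either. Each pattern was searched on both strands. The windows also differed in GC content, at 32.8% for CLEC12A, 33.6% for CLEC2D, 43.6% for CLEC5A and 58.8% for CLEC11A, beside a median of 58% over all promoters. CLEC2D and CLEC11A, which differed between the groups by nearly the same amount, had the fewest and the most GGAA matches of the 4. A match describes letters and not a bound site.

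The order of the levels changed with the label. In the DMSO-labelled libraries it ran CLEC2B, CD93, CLEC12A, CLEC11A, CLEC5A, CLEC2D, CD69 and CLEC7A, and each gene's lowest library lay above the next gene's highest. CLEC5A and CLEC2D were the closest pair there, with a lowest library at 29.9 CPM for the first and a highest at 26.9 CPM for the second. In the CIP-labelled libraries it ran CLEC11A, CLEC12A, CLEC5A, CLEC2D and CLEC2B, these again without overlap, and CLEC2B, CD69, CD93 and CLEC7A overlapped their neighbours in the order. The growth factor gene thus led under the CIP label and the NKp80 ligand gene under the DMSO label.

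The 8 genes summed to 2210 ± 204.1 CPM (SD, n = 3) in the DMSO-labelled libraries and to 168.1 ± 10.8 CPM in the CIP-labelled ones. CLEC2B alone made up 65.3% to 70.2% of their counts in a DMSO-labelled library and 0.124% to 0.728% in a CIP-labelled one. Without CLEC2B the sums were 698.7 ± 15.0 and 167.5 ± 11.1 CPM, so the gap did not rest on CLEC2B alone. Most of what remained came from CD93 (271.6 against 0.222 CPM) and CLEC12A (223.4 against 28.0 CPM). CLEC11A made up 5.41% to 6.89% of the members' counts under the DMSO label and 59.1% to 59.7% under the CIP label, although its own level was lower with CIP. CLEC12A held 9.56% to 10.9% and 15.5% to 17.9% in turn.

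**Figure D2:**
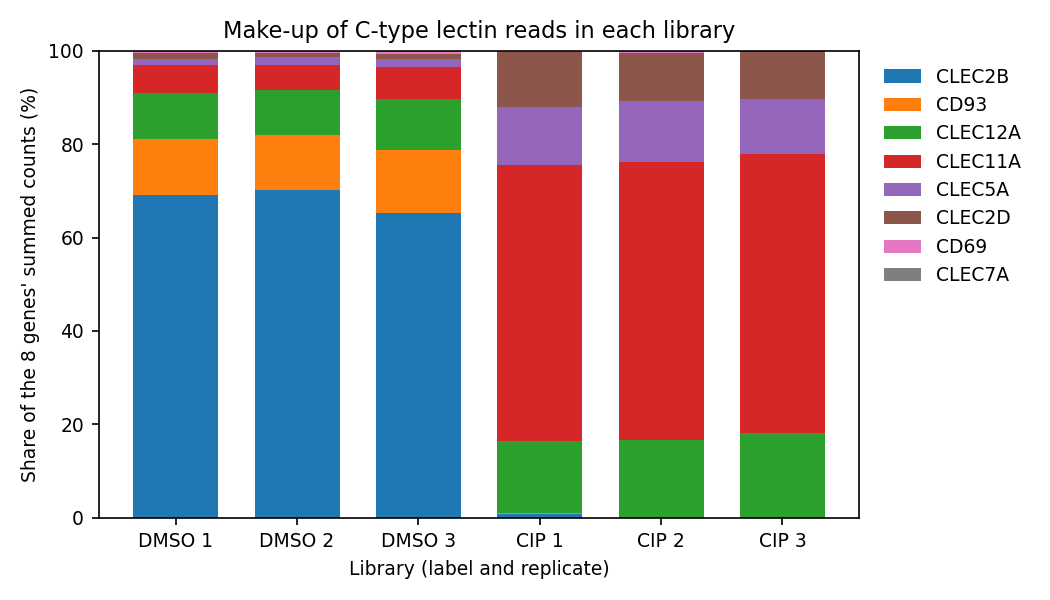
Share of the 8 genes' summed counts (percent, vertical axis) held by each gene in each of the 6 libraries (horizontal axis). CLEC2B fills 65.3% or more of each DMSO-labelled bar, and CLEC11A fills 59.1% or more of each CIP-labelled bar.

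Of the members, 5 share a place in the genome that the choice by name did not use, which raised the question of how the genes between them behaved. CLEC2D, CD69, CLEC2B, CLEC12A and CLEC7A lie in this order within 460.6 kb of chromosome 12. The genes that RefSeq places around them, over 3.65 Mb from 1 Mb before KLRG1 to 1 Mb after KLRA1P, numbered 172, of which 122 were in the files. Of the 32 tested genes there that are not members, 14 were lower and 10 higher with the CIP label and 8 were not called, with a median log2 fold change of 0.23. That is 75% called and 43.8% lower, against 73.1% and 38.2% of all tested genes.

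The tested genes next to CLEC2D, CD69, CLEC2B and CLEC12A were all lower. All but LOC374443 passed the filter through the DMSO-labelled libraries alone, which favoured a lower value. CLEC2A is a paralog of CLEC2B, known from skin as a ligand of the receptor KLRF2, and a gap of 8.4 kb parts the spans of these genes. CLEC2A had 623, 657 and 492 counts with the DMSO label and 0, 0 and 1 with the CIP label (edgeR adjusted p = 5.5e-25). CLECL1P, a lectin-like gene between CLEC2D and CD69, had 1941, 2036 and 1683 counts against 3, 0 and 4, a log2 change of -9.53 ± 0.19 (edgeR adjusted p = 1.1e-30). LINC02470, a noncoding RNA between CLEC2A and CLEC12A, had 3401, 3619 and 2635 counts against 0, 0 and 8 (edgeR adjusted p = 1.4e-11). These 3 genes showed the pattern of CLEC2B, abundant under 1 label and all but unread under the other. LOC124902874, the lncRNA gene inside CLEC12A, was at least 1079-fold lower (edgeR adjusted p = 6.5e-28). CLEC12B, an inhibitory receptor gene next to CLEC12A, went from 17.2 ± 2.09 to 0.831 ± 0.382 CPM (edgeR adjusted p = 7.7e-15), and LOC374443, before CLEC2D, from 8.04 ± 2.01 to 3.73 ± 0.492 CPM (edgeR adjusted p = 9.1e-04).

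In the order of the chromosome, these 6 genes and the members CLEC2D, CD69, CLEC2B and CLEC12A formed an unbroken series of 10 tested genes with lower values under the CIP label, from 9617284 to 10018800 (401.5 kb). The limits of this series were set after its values were seen, so it has no test of its own. CLECL1P, CD69, CLEC2B, CLEC2A, LINC02470, LOC124902874 and CLEC12B passed the filter through the DMSO-labelled libraries alone. For these genes, being tested favoured a lower value. Genes between them with too few counts to be tested, KLRF1 among them, were left out of the series. Outside it, 10 of 26 tested genes were higher, 8 lower and 8 not called. TMEM52B, the first tested gene beyond CLEC12B, was higher, with 105, 104 and 105 counts under the CIP label against 34, 12 and 24 under the DMSO label (edgeR adjusted p = 6.5e-08). The KLR receptor genes of the same complex were mostly unread: 7 of 11 in the files, KLRB1, KLRD1, KLRK1 and KLRC1 to KLRC4, had 0 counts in every library. KLRF1, which lies between CD69 and CLEC2B, had 4, 12 and 4 counts under the DMSO label and 0 under the CIP label.

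**Figure D3:**
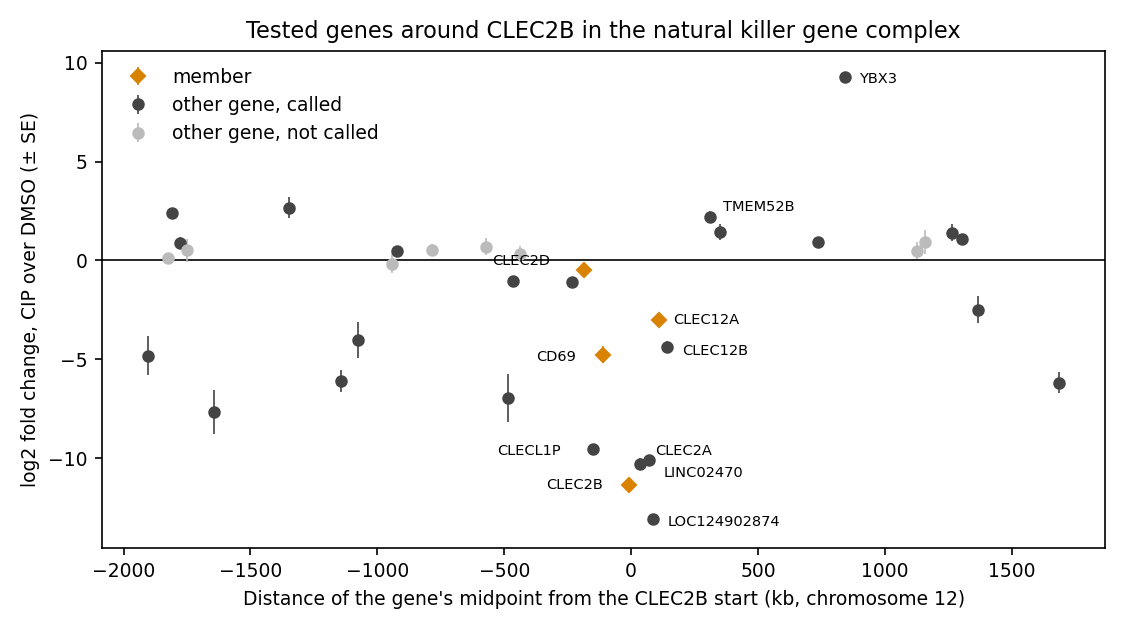
Log2 fold change (CIP over DMSO, vertical axis, whiskers 1 SE) of each tested gene of the stretch by the distance of its midpoint from the start of CLEC2B (kb, horizontal axis). Members are orange diamonds, other genes are dark where called and pale where not; all points from -231.5 to 143.2 kb lie below 0, and the next tested gene, TMEM52B, lies above 0.

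The genes with a profile most like that of CLEC2B were sought over the 6 libraries by the root mean square difference of gene-centred log2 values (CPM plus 0.5). Locus-number symbols were left out. Since the libraries form only the CIP and DMSO groups, this measure mostly restates the difference between them. The closest of 12046 genes was BEX1, an X-linked adaptor gene, at 0.587 log2 units, with 974.4 ± 16.1 CPM under the DMSO label and 0.343 ± 0.247 CPM under the CIP label. CD93, a member, was the second at 1.00 log2 units. LINC02470, the calcium channel gene RYR2 and CLECL1P followed at 1.05 to 1.27 log2 units. The other members were much farther, from 3.42 log2 units for CD69 to 5.07 for CLEC11A. The members' order here followed their log2 fold changes, known when they were chosen, so nothing is read from their places. The profiles of these genes rest on few counts in the CIP-labelled libraries, and with a pseudocount of 0.1 only 2 of these 5 genes were among the closest 5.

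Next, other genes with a C-type lectin domain were read, from a list of 50 surface receptors and adhesion molecules of leukocytes and endothelium. Most were not measurable: 20 had 0 counts in every library and 13 were tested. Of the 13, 9 were lower with the CIP label, 1 was higher and 3 were not called, with a median log2 fold change of -2.93 beside -0.035 for all tested genes. That is 76.9% called and 69.2% lower, against 73.1% and 38.2% of all tested genes. CLEC2A, CLECL1P and CLEC12B, given above, are 3 of the 9. FCER2, the low-affinity IgE receptor CD23, had 100, 95 and 75 counts under the DMSO label and 0 under the CIP label, at least 86.8-fold lower (edgeR adjusted p = 2.6e-13). CLEC2A, CLECL1P, CLEC12B and FCER2 passed the filter through the DMSO-labelled libraries alone, so the filter favoured a low median. With no low-count filter, the median was -1.83 over 30 genes of the list, beside -0.197 for all genes. MRC2, a collagen-binding receptor of the mannose receptor family, fell from 205.6 ± 16.6 to 62.7 ± 2.19 CPM (edgeR adjusted p = 4.6e-20). The gene called higher, CLEC4D, a receptor for mycobacterial glycolipid, was low, at 3.26 ± 1.13 against 0.505 ± 0.250 CPM (edgeR adjusted p = 3.9e-05). It was singled out after its values were seen. The number called higher was 2 without CIP replicate 2, without each DMSO replicate and with no low-count filter. CLEC4E, a related receptor gene of the list that did not pass the filter, had 11, 9 and 20 counts under the CIP label and 0 under the DMSO label. KLRG1, CLEC4A and LY75 were not called, with log2 fold changes of 0.53, 0.51 and 0.10.

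A list of 31 secreted, matrix or otherwise placed proteins with such a domain or with the CLEC name had 7 tested genes, of which 2 were higher, 2 lower and 3 not called (median log2 fold change -0.11). That is 57.1% called and 28.6% lower, against 73.1% and 38.2% of all tested genes. The split was 3 higher and 1 lower without CIP replicate 2, and 2 higher and 1 lower without DMSO replicate 1 or DMSO replicate 2. PRG2, the eosinophil major basic protein, whose mature part has a C-type lectin-like fold, had 55955, 59840 and 60956 counts under the CIP label and 15, 4 and 21 under the DMSO label (edgeR adjusted p = 2.4e-19). It thus went in the direction opposite to all tested members. CLEC16A, which shares the CLEC name and acts in mitophagy, rose from 10.4 ± 1.57 to 21.1 ± 3.34 CPM (edgeR adjusted p = 6.3e-06).

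**Figure D4:**
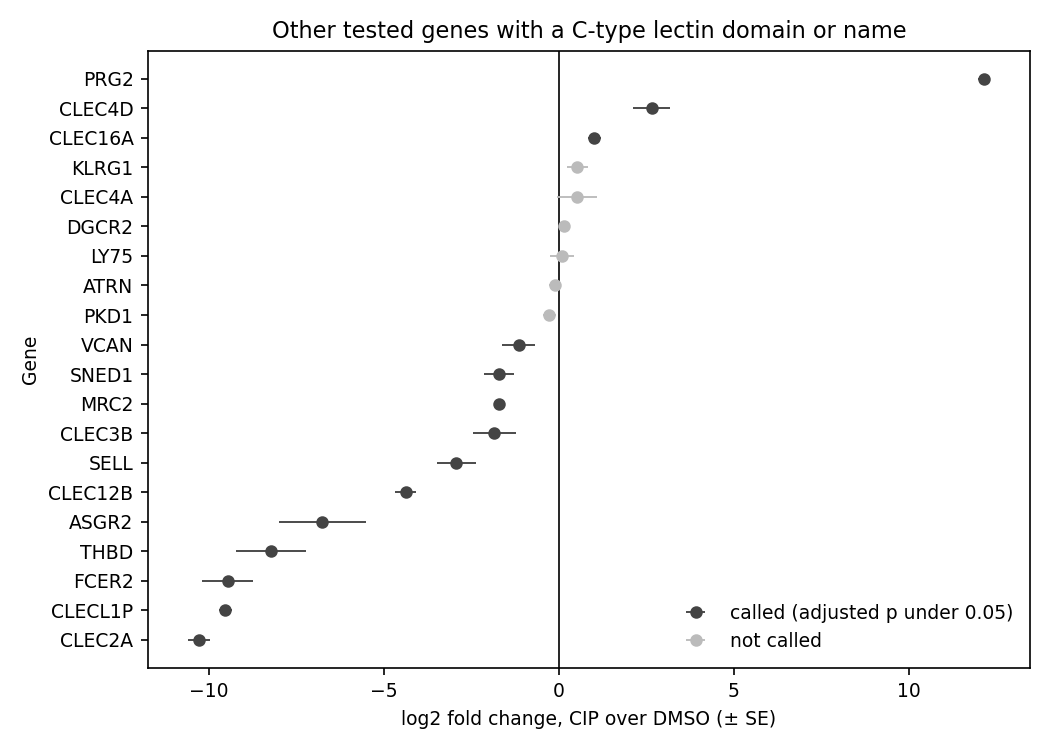
Log2 fold change (CIP over DMSO, horizontal axis, whiskers 1 SE) of the 20 tested genes of both lists of other C-type lectin genes (vertical axis), dark where called and pale where not. Of the called genes, 11 lie below 0 and 3 above it, PRG2 the farthest; for a gene at 0 under 1 label, such as FCER2, the plotted value depends on the prior count of the fit.

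The partners that bind the members were mostly of moderate level. Of 17 listed ligands, counter-receptors and interacting proteins 11 were tested, and 6 were lower, 3 higher and 2 not called (median log2 fold change -0.74). That is 81.8% called and 54.5% lower, against 73.1% and 38.2% of all tested genes. MSN, moesin, which ties CD93 to the actin skeleton, had 9091, 9058 and 8484 counts under the DMSO label and 38, 37 and 65 under the CIP label, a log2 change of -7.52 ± 0.11 (edgeR adjusted p = 2.3e-33). GIPC1, another protein that binds the tail of CD93, fell from 10.1 ± 1.39 to 0.671 ± 0.0498 CPM (edgeR adjusted p = 1.2e-11). GIPC1 passed the filter through the DMSO-labelled libraries alone. The other listed partners of CD93 did not share this direction. IGFBP7 was not called, at 47.0 ± 1.16 CPM with the CIP label and 49.6 ± 6.27 CPM with the DMSO label (edgeR adjusted p = 0.49). MMRN2 had 0 counts in every library. The myosin light chain genes MYL12A and MYL12B, whose products bind CD69, rose, MYL12A from 98.4 ± 2.18 to 275 ± 43.5 CPM (edgeR adjusted p = 8.6e-15) and MYL12B from 68.8 ± 7.93 to 162.3 ± 27.2 CPM (edgeR adjusted p = 1.5e-09). Other listed partners of CD69 did not rise. SLC7A5 and S100A9 were lower, with log2 fold changes of -0.74 and -1.46 (edgeR adjusted p = 6.5e-07 and 0.0032). S100A8 was not called (log2 fold change 0.15), and MYL9 was not tested. S1PR1 was not tested, with 5, 3 and 0 counts under the CIP label and 1, 0 and 0 under the DMSO label. KLRB1, the receptor of CLEC2D, had 0 counts in every library.

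Genes that carry the signals of these receptors were almost all measured. Of 46 adaptor, kinase, phosphatase and CARD9-pathway genes 42 were tested, with 20 lower, 13 higher and 9 not called (median log2 fold change -0.18). That is 78.6% called and 47.6% lower, against 73.1% and 38.2% of all tested genes. Among the adaptors, TYROBP, the partner of CLEC5A, stood at 30.2 ± 4.87 CPM with the CIP label and 35.7 ± 1.65 CPM with the DMSO label and was not called (edgeR adjusted p = 0.082). FCER1G, the Fc receptor gamma chain, fell from 60.3 ± 4.66 to 18.0 ± 0.497 CPM (edgeR adjusted p = 1.9e-15). The kinase gene SYK fell from 106.6 ± 5.3 to 71.1 ± 5.17 CPM (edgeR adjusted p = 1.1e-07). VAV2, PLCG1 and NFKB2, a guanine nucleotide exchange factor, a phospholipase and an NF-kB subunit, had log2 fold changes of -3.43, -3.51 and -3.38 (edgeR adjusted p = 2.8e-13, 1.4e-11 and 2.0e-12). In the other direction CARD9 rose from 24.5 ± 1.78 to 66.9 ± 8.14 CPM (edgeR adjusted p = 1.3e-13), and its partners BCL10 and MALT1 were higher too, with log2 fold changes of 1.15 and 1.05 (edgeR, both called). PTPN6, the phosphatase recruited by CLEC12A, rose from 55.6 ± 4.3 to 84.1 ± 6.03 CPM (edgeR adjusted p = 4.0e-07), while CLEC12A itself was lower.

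Markers of other cell types were read because natural killer, monocytic and endothelial cells are known to express some of the members or their partners. These counts stand beside the 73.1% called and 38.2% lower of all tested genes. Of 13 natural killer cell markers 2 were tested and both were lower, NKG7 and NCAM1, and FCGR3A, GZMB, KLRD1, NCR1, PRF1 and TBX21 were at 0 in every library. Their summed level was 3.48 to 4.44 CPM under the CIP label and 81.4 to 100.9 CPM under the DMSO label, most of it from NKG7 alone, at 79.7 ± 12.2 CPM under the DMSO label and 3.20 ± 0.442 CPM under the CIP label. Of 16 monocyte, macrophage and dendritic cell markers 10 were tested, with 8 lower and 1 higher (90% called), and their summed level was 44.2 to 57.1 CPM with the CIP label and 366 to 373.6 CPM with the DMSO label. LYZ alone gave 232.3 ± 9.84 CPM of the DMSO-labelled sum. CD14 (2 counts under the CIP label, 0 under the DMSO label) and CSF1R (18 and 25) were close to unread. Several genes called lower passed the filter through the DMSO-labelled libraries alone. CD163, CD1C and XCR1 were at 0, and IRF8, a transcription factor of monocytes and dendritic cells, had 489, 460 and 445 counts under the DMSO label and 0 under the CIP label, at least 448.2-fold lower (edgeR adjusted p = 9.4e-23). FLT3, a receptor of progenitors and dendritic cells, went the other way, with 220, 269 and 236 counts under the CIP label against 11, 9 and 3 under the DMSO label (edgeR adjusted p = 9.2e-18), and FCGR1A was not called. FLT3 gave 25.6 ± 1.88 CPM of the CIP-labelled sum. The 2 natural killer and 8 monocyte or dendritic markers that were lower moved in the direction of CLEC2B, CLEC12A and CD93, and their part in the members' values was not tested. Of 14 T and B cell markers 5 were tested and 4 were lower, of which CD4 was close to the threshold (log2 fold change -0.27, edgeR adjusted p = 0.044). The number was 3 with DESeq2, limma-voom, the replicate block or no low-count filter, and also when CIP replicate 1, DMSO replicate 3 or CIP replicate 2 was left out. CD5, CD8A, IGHM and MS4A1 were at 0, and the sums were 34.5 to 38.2 and 54.3 to 64.7 CPM. Of 14 endothelial, platelet and stromal markers 5 were tested and 1 was higher, the platelet integrin gene ITGA2B, a count that was 3 without CIP replicate 3, 4 without DMSO replicate 2 and 2 without DMSO replicate 3. CDH5, CLDN5, GP9, PF4 and PPBP were at 0, CDH5 and CLDN5 being defining genes of endothelium. The sums of this list were 16.9 to 33.2 and 22.3 to 67.6 CPM, most of it from COL1A1, COL3A1 and KRT8. These genes were read in every library and were not called. They were highest in DMSO replicate 1, at 336, 190 and 112 counts in turn.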

How the data were processed

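Gene expression was measured in 6 libraries, grouped by the sample titles into 3 with CIP and 3 with DMSO. The authors deposited whole-number counts per gene symbol, and the values show no scaling. Per the submitters' processing notes, the build was GRCh38 and the tools included HTSeq, STAR, fastp and bcl2fastq (2.20.0.422), with no role or setting given. The sources used here do not give the annotation, strand setting or any use of molecular identifiers. Intervals cover counting error only. The members and gene lists were chosen with earlier results of these data known.

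Counts were tested with edgeR 4.0.16 (R 4.3.3; quasi-likelihood, robust, filterByExpr, TMM, group alone, 2-sided) with Benjamini-Hochberg adjustment over all 12844 genes kept, and the steps were tested on simulated data. Fitted values of the members are given without p-values. An exact permutation test of 3 against 3 libraries cannot go below 0.1. The SE is the size of the log2 fold change divided by the square root of F. Folds against 0 counts use 3 counts over the group. Genes named are the members, up to 4 called genes per list with the largest change at 5 CPM or more, 12 genes fixed by name, tested neighbours of members and the 5 genes most like CLEC2B. MRC2, CLEC4D, KLRG1, CLEC4A, LY75, CLEC4E, FCGR1A, AZU1, CD33, PRTN3, BCL10, MALT1, TMEM52B and ITGA2B were added after their values were seen. COL1A1, COL3A1, KRT8, LYZ, CD14, CSF1R, IGFBP7, MMRN2, SLC7A5, S100A8, S100A9 and MYL9 were added in the same way. Other genes that this rule takes are only counted or not reported here. Positions and promoters come from RefSeq (GRCh38.p14), matched by symbol for all 8 members. Protein sequences were not used here. Alternatives were RLE, upper-quartile and no scaling, other filters, DESeq2 1.42.0, limma-voom (limma 3.58.1), a replicate block and each library left out.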

Additional observations from a re-analysis of the deposited data

How the results depend on the processing

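The 7 members that could be fitted were lower with the CIP label under every alternative run. Between the scalings, filters and tools the log2 difference ranged from -11.58 to -11.33 for CLEC2B, from -10.49 to -10.22 for CD93, from -5.36 to -4.76 for CD69 and from -3.22 to -2.97 for CLEC12A. It ranged from -0.94 to -0.69 for CLEC5A, from -0.69 to -0.44 for CLEC2D and from -0.65 to -0.40 for CLEC11A, with library totals alone as the lowest value for these 3. Leaving out single libraries gave -12.20 to -10.93 for CLEC2B, where 2 to 10 counts per CIP-labelled library limit the precision. CLEC7A had a value in the fit without a low-count filter alone. The number of called endothelial, platelet and stromal markers, 1 in the result given, was 2 with upper-quartile scaling, 2 with library totals, 2 with no low-count filter, 2 with limma-voom and 3 with the replicate block. It was 1 to 4 when single libraries were left out, 3 without CIP replicate 3, 4 without DMSO replicate 2 and 2 without DMSO replicate 3. The cause was not tested. With a pseudocount of 0.1, 2 of the 5 genes closest to CLEC2B were kept. Same-numbered replicates did not deviate together (correlations -0.02, -0.043 and -0.024, beside -0.012 to 0.037 for the other pairs). The values gave no sign of pairing by number. They cannot show that the samples were unpaired by design, which the labels do not state. With the replicate block 9061 genes were called in place of 9394.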
